A study of Homo sapiens with 2 samples.

Results

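Among the methylated adenosines listed in HEK293T messenger RNA, 1760 carried no gene name in the deposited lists and lay more than 10000 nt from every named-gene site on their own strand. They were taken by rule: a site had to be listed without a gene in both libraries, and no site with a gene name in either library could lie within 10000 nt on the same chromosome and strand. The rule used names and positions, not levels or depth. The 1760 sites made up 40.4% of the 4356 unnamed sites found in both libraries and 2.91% of all 60462 sites found in both. The other 2596 unnamed sites lay near a named-gene site, and 56106 sites lay in named genes; both serve here for comparison.

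The series holds 1 group of 2 replicates: wild-type HEK293T cells, an established line of human embryonic kidney origin that carries the SV40 large T antigen, labelled day 0, with no treatment of the living cells named in the labels. Their poly(A) RNA was selected on oligo(dT) beads and put through GLORI, which deaminates unmethylated adenosine to inosine and leaves N6-methyladenosine (m6A) as the base still read as A. The level of a site is the share of A among its A and G reads. Whether the replicates were separate cultures is not stated, so differences between them may be technical, and with 1 group no conditions could be compared. Of 5 genes known from HEK293 cells, 4 had listed sites in both replicates (PAX2, GATA3, NEFM and NEFL) and LHX1 had 0, while 7 markers of blood, liver, fibroblast, endothelial and squamous cells had 0. A gene without a listed site may still be expressed.

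In messenger RNA, m6A is laid down during transcription by a methyltransferase complex whose catalytic subunit is METTL3, mostly at an adenosine followed by C in a short consensus. A related mark, m6Am, sits on an adenosine that forms the first nucleotide after the cap, and is also protected from deamination. Transcripts outside annotated genes, such as long noncoding RNAs, upstream antisense transcripts and copies of genes, can carry both marks once they are capped and polyadenylated.

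The sequence around a site could be read for 75 of the 1760 sites, those that fell with their neighbouring bases inside one of the 35116 RefSeq promoter windows (GRCh38.p14), which run from 250 bases before to 50 after an annotated gene start. In all 75 the base at the listed position and strand was A. They divided by strand: 45 lay on the strand of the gene and 30 on the opposite strand. The 8 sites with the most reads in each class are shown to let the sequence contexts be compared, each as 21 bases, 5′ to 3′ on the strand of the site, with the methylated A and its 2 neighbours on either side in capitals. These sites were chosen for depth after their values were known. The sites at LOC101929918 and FANK1 lay inside another RefSeq gene on their own strand. On the strand opposite to the named gene the 8 sites were as follows.
COMMD1, chr2:61888172-61888192, minus strand: aggcctttGGACTtgccccat
LOC101929918, chr11:34052290-34052310, plus strand: cccctcccCCACCcgctcgcg
LINC01265, chr5:38720296-38720316, plus strand: ttctacagAAACGatgtgaca
TBC1D22A, chr22:46762417-46762437, minus strand: cccgcaacGGACTcccaggag
IL17D, chr13:20703316-20703336, minus strand: tgtgcagtGTACTcaccagtg
FANK1, chr10:125896342-125896362, minus strand: gccccgcaGGACCtgtgcccc
MED14OS, chrX:40735579-40735599, minus strand: gggtcggcGGACTtctcgcta
ARMC5, chr16:31458902-31458922, minus strand: ccggagctGGACCccggtgtc

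On the strand of the gene, the 8 most covered sites had these sequences.
COX8A, chr11:63974588-63974608, plus strand: ccccagctCCAGAacttccgg
UQCRH, chr1:46303681-46303701, plus strand: agtgacccTTACAagtccttc
TSPO, chr22:43151537-43151557, plus strand: atgcggggACAGCggcctggc
RPL35, chr9:124861952-124861972, minus strand: agccccgcCTACTtcctcttt
COX8A, chr11:63974582-63974602, plus strand: ctgcttccCCAGCtccagaac
LOC124902453, chr10:73744248-73744268, minus strand: cgcctcttTCATCttcccatc
RPS18, chr6:33272056-33272076, plus strand: atatcgcgTCACTtccgctct
EIF3K, chr19:38619176-38619196, plus strand: cgtttccaCCACCtcttcctg

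The contexts of both classes were counted over the 18 forms of the m6A consensus (GGAC or AGAC or TGAC or GAAC or AAAC or TAAC, followed by A, C or T, centred on the methylated A on the strand of the site, so that no site matches more than 1 of them). On the opposite strand 21 of 30 sites were centred on one of these forms, 70.0% (95% Wilson interval 52.1 to 83.3), and 28 of 30 had a C after the A. These 30 sites lay at 19 genes, with 5 of the sites at ARMC5. In the other classes on that strand the share was 86.7% (70.3 to 94.7, n = 30 sites) near named-gene sites and 85.7% (80.8 to 89.5, n = 245) in named genes. Both intervals overlap that of the 70.0%. On the strand of the gene 12 of 45 sites were centred on one of the forms, 26.7% (16.0 to 41.0). Of all A bases in the windows, 7.25% on the strand of the gene and 7.35% on the opposite strand are centred on one of the forms, and at least one form occurs in 97.2% and 97.3% of the windows. GGACT was the most frequent context on the opposite strand, with 9 sites, and GAACT on the strand of the gene, with 7. These intervals cover counting error only, since neighbouring sites share a transcript. The strand classes were formed after the sequences had been read, and the difference between them is given without a test.

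The sites on the strand of the gene gathered just before the annotated start. Of these 45 sites, 33 (73.3%) lay 1 to 50 nt upstream of it, against 65 of 138 near unnamed sites (47.1%) and 85 of 865 sites in named genes (9.83%) on the strand of the gene. Upstream of the start at any distance in the window lay 44 of the 45, 135 of the 138 and 220 of the 865. Unnamed sites were thus nearly all upstream, while the 9.83% is a share of named-gene sites on both sides of the start. Of the 33 sites, 3 were centred on a consensus form; of the 12 others, 9 were. In 28 of the 33 the base before the A was C or T, against 44.4% of all A bases in the same 50 nt of all windows. The same held for 40 of the 65 near unnamed sites and 53 of the 85 named-gene sites in that stretch. Of those 65 and 85 sites, 15 and 20 were centred on a consensus form. The median level of the 33 sites was 24.0%, against 36.6% at the 12 others, and depth was not matched between them. Of the 45 sites, 8 lay before cytosolic ribosomal protein genes, at levels from 12.1% to 68.4%. RPS13 had 64.3% of 84 reads in replicate 1 and 72.6% of 73 in replicate 2, and RPS18 had 55.6% of 135 and 49.7% of 147. RPL35 was lower, at 15.3% of 216 and 20.3% of 231 reads.

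COX8A, a subunit of cytochrome c oxidase, had sites 28 and 22 nt before its start, 12.95% and 17.4% methylated at the first and 20.9% and 24.4% at the second, in replicates 1 and 2. The deepest site of UQCRH, a subunit of respiratory complex III, had 16.4% and 17.0% at 7 nt before the start, over 244 and 306 reads. TSPO, a protein of the outer mitochondrial membrane, had the lowest mean level of the 45, 12.7% and 10.2%. All of these were low in both replicates. A site farther upstream of NCAPD2, which encodes a condensin subunit, differed: at 140 nt before the start it was methylated at 95.4% and 96.8% and centred on GAACT. The other NCAPD2 sites in this window were also centred on consensus forms but were much lower. At -105 nt (AGACT) the level was 28.8% and 33.3%, and at -42 nt (AAACT) 30.2% and 37.4%. Named-gene sites on the strand of the gene in such windows had a consensus share of 28.7% (n = 865 sites), and unnamed sites near a named-gene site 48.6% (n = 138).

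The 30 sites on the opposite strand were spread from -223 to 47 nt relative to the start, 7 of them within the 50 nt before it. Their median level was 56.0%, against 28.6% for the 45 sites on the strand of the gene. Depth was not matched between these classes. The deepest opposite-strand site had 145 and 147 reads, and the deepest on the strand of the gene, at COX8A, 326 and 410. Shallow sites can be listed only with high levels, and the part of depth in this difference was not tested. COMMD1, which encodes a regulator of copper transport, had an opposite-strand site at -209 nt with 80.7% of 145 reads and 86.4% of 147. The site before TBC1D22A stood at 76.8% of 56 and 87.0% of 54 reads. Both were centred on GGACT. At ARMC5, which encodes an armadillo repeat protein, 5 sites lay in the windows of its starts, between 32.9% and 95.9%. JTB had sites of 47.6% and 96.4% within its window, both inside the divergent noncoding gene JTB-DT. Opposite here means opposite to the gene of the window. The sites at VPS45, FANK1 and LOC101929918, for example, also lay inside another gene on their own strand.

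**Figure D1:**
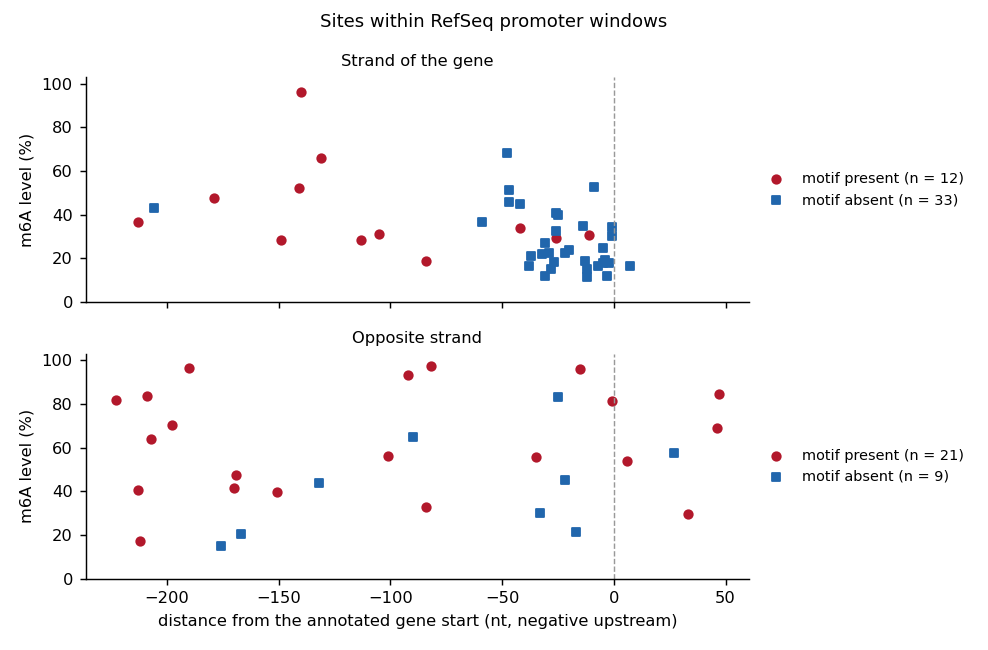
Level of each of the 75 sites in RefSeq promoter windows (vertical axis, mean of both replicates, %) against its distance from the annotated gene start (horizontal axis, nt), above for the 45 sites on the strand of the gene and below for the 30 on the opposite strand; colour and shape mark whether the site is centred on one of the 18 consensus forms. Of the sites on the strand of the gene 33 lie 1 to 50 nt upstream of the start, mostly without a consensus form, while the opposite-strand sites are spread over the window.

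Levels of the 1760 sites covered the listed range. The median was 44.0% (95% interval of the median 42.0 to 46.8), with quartiles of 26.0% and 69.8%, and it was 44.4% in replicate 1 and 44.5% in replicate 2. The median in named genes was 44.9% (44.5 to 45.3), and near named-gene sites 40.7% (39.4 to 41.9). A level of at least 80% was reached by 310 sites (17.6%), against 20.1% in named genes and 13.6% of the near unnamed sites. Under 20% lay 261 sites (14.8%), against 15.2% and 15.4%. Sites within a transcript share their reads and their source, so these intervals describe the lists and are not tests between replicated groups.

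The 1760 sites were shallower than sites in named genes and, in each class of depth under 100 reads, had a lower median level. Median depth, as the mean of both libraries, was 31.5 reads, against 33.0 for near unnamed sites and 47.0 in named genes, and 45.6% of the 1760 sites had under 30 reads, against 26.3% in named genes. Among sites under 30 reads the median level was 51.9% (49.2 to 55.4) against 58.6% (57.9 to 59.3) in named genes. From 30 to 49 reads it was 39.0% (34.7 to 43.8) against 46.0% (45.1 to 46.8), and from 50 to 99 reads 28.0% (24.5 to 31.7) against 37.3% (36.6 to 38.1). Above that the intervals overlapped: 33.0% (22.5 to 47.6) against 33.3% from 100 to under 200 reads, and 23.8% (18.6 to 38.6) against 28.6% at 200 or more. The near unnamed sites had 48.5%, 36.1% and 28.8% in the first 3 classes. The lists hold no site with fewer than 5 A reads or a level under 10%, so shallow sites can appear only with high levels. Across the 1760 sites level and depth had a Spearman rho of -0.335, a description over sites that share libraries and this limit.

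**Figure D2:**
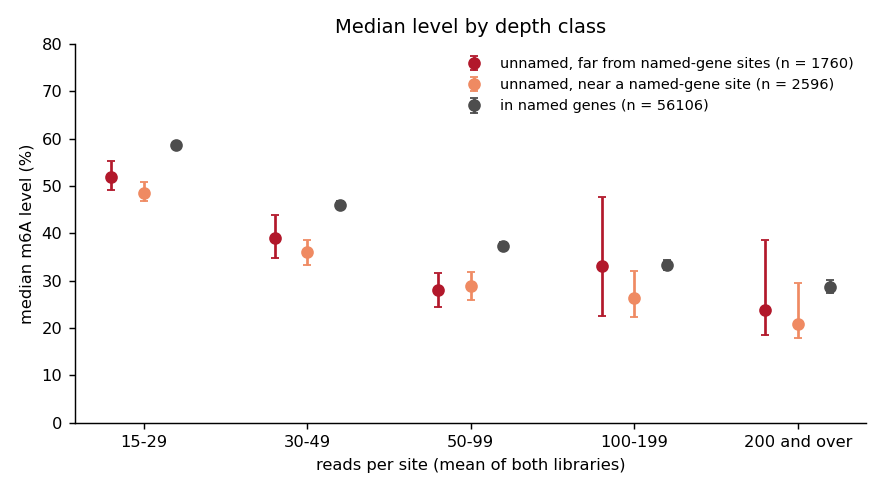
Median level (vertical axis, %) in 5 classes of depth (horizontal axis, mean reads per site of both libraries) for the 1760 far unnamed sites, the 2596 near unnamed sites and the 56106 sites in named genes; bars are 95% intervals of the median. In the first 3 classes the far unnamed sites lie below sites in named genes, at 51.9%, 39.0% and 28.0% against 58.6%, 46.0% and 37.3%.

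Most of the 1760 sites had similar levels in both replicates. Between the files the 1760 levels moved by a median of 5.89 percentage points, and for 95% of them by under 22.2. Larger moves occurred at low depth. Position 64641664 of chromosome 16 (minus strand) had 26.3% of 19 reads in replicate 1 and 81.0% of 21 in replicate 2. Fisher's exact test on the A and G counts, adjusted by Benjamini-Hochberg over all 60462 shared sites, called 0 of the 1760, and 0% of all shared sites were called. At an unadjusted p under 0.05 there were 43 (2.44%), against 3.06% of all shared sites, and a chi-square test scaled by the dispersion called 0 after adjustment (0% of all shared sites) and 85 before it (5.06% of all shared sites). A chi-square per site averaged 0.931 over all shared sites. The scaled test divides by this mean, so its share of unadjusted calls over all shared sites was largely set in advance. Sampling of reads alone gives about 1 where no site is left out, but sites under a limit in 1 file are missing here. The mean thus cannot show how far the replicates vary. The files were counted as 1 sample and no SD is given. The largest difference among 419 sites whose depth reached 50 reads in each file was at position 39281259 of chromosome 19 (plus strand), at 13.6% of 66 reads and 35.4% of 65 (Fisher's exact test, adjusted p = 1). Next came position 6493734 of chromosome 12 (before NCAPD2), at 64.7% of 51 and 85.1% of 67 reads. Position 85568556 of chromosome 12 had 49.1% and 30%. Position 96355633 of chromosome 4 had 66.7% and 50%, and position 133487899 of chromosome 2 had 40% and 56.6%. These also lay on the plus strand.

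Detection was lower than in named genes and close to that of the near unnamed sites. Of the unnamed sites of replicate 1 with no named-gene site of either list within 10000 nt, 73.8% were also in replicate 2 (1760 of 2384, 95% Wilson interval 72.0 to 75.6). The share was 76.4% (74.9 to 77.8) for near unnamed sites and 84.2% for named-gene sites. In the other direction 58.9% of 2990 were found (57.1 to 60.6), against 61.6% (60.1 to 63.1) of near unnamed sites and 75.5% of named-gene sites. Both unnamed classes were shallower than named-gene sites, and the part of depth in detection was not tested. Sites listed once had medians of 27.8% and 22 reads in replicate 1 and 33.3% and 20 reads in replicate 2.

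Depth was concentrated in few sites. The 10 most covered held 17.2% of all reads at the 1760 sites, and the first 2 of them 10.5%. Position 9437440 of chromosome X (plus strand, in the span of the noncoding gene LOC107985634) had 5150 and 6092 reads and a level of 11.2% in replicate 1 and 12.4% in replicate 2. Position 91387534 of chromosome 1 (minus strand, within HFM1, a meiotic DNA helicase gene on the same strand) was almost as deep, with 5085 and 5918 reads, and was nearly fully methylated at 99.4% and 99.5% (95% Wilson interval on the summed counts 99.3 to 99.6). No other of the 1760 sites shared a group with either. The 2 deepest sites thus stood at opposite ends of the range. Whether their reads could also align elsewhere in the genome was not tested, and repeats were not analysed.

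The next were much shallower. On chromosome 1, position 171252611 (plus strand, within FMO1) had 16.2% of 1101 and 15.9% of 1285 reads, and on chromosome 12, position 96381172 (plus strand, opposite to CDK17) had 45.9% of 940 and 46.0% of 1088. A pair 48 nt apart on chromosome 5 lay at least 1230698 nt from the nearest named-gene site on its strand and in no RefSeq gene: position 28708381 had 93.9% and 93.0% over 869 and 1055 reads, and position 28708429 had 46.1% and 43.8% over 627 and 787. The 95% Wilson intervals on their summed counts, 92.2 to 94.4 and 42.3 to 47.4, lay far apart.

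On chromosome 4, positions 19597674 and 19597678 (minus strand) were covered by the same 566 and 733 reads and had 70.5% and 70.9% at the first and 77.6% and 77.4% at the second. Position 22460961 of the same chromosome (plus strand, opposite to ADGRA3) had 18.2% and 19.0%, and position 23538377 of chromosome 9 (plus strand) 22.79% and 23.01%. On chromosome 6, position 144370983 (minus strand, opposite to UTRN, the gene of the dystrophin relative utrophin) had 98.4% and 98.2% over 752 and 895 reads. At all of these sites the replicates lay within a few percentage points of each other, and 5 of the 10 deepest stood alone. No site lay in an annotated rRNA, snRNA, snoRNA or miRNA gene of RefSeq, and unannotated copies of such genes were not looked for. In the span of a pseudogene, on either strand, lay 1 of the 59 sites with at least 200 reads and 72 of the 1283 under 50 reads (5.61%). A run of sites in a single span counts once per site, so no difference by depth is read from these shares.

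The same 419 sites gave the ends of the range. Position 155383273 of chromosome X (plus strand, in F8A2, a member of a family of near-identical genes whose reads may not be separable) was read as A in all of 70 and 66 reads. Position 155408582 of chromosome 5 (plus strand) had 100% of 134 and 98.7% of 150 reads, position 132279429 of chromosome 2 (minus strand) 100% of 138 and 98.6% of 208, and position 23140745 of chromosome 1 (plus strand) 100% of 79 and 98.1% of 105. The lowest were at the limit of the lists. Position 48492694 of chromosome 1 (plus strand) had 10.0% of 110 and 10.2% of 137 reads, and position 35238103 of chromosome 15 (plus strand, opposite to DPH6 and in the span of the pseudogene ANP32AP1) 10.3% of 446 and 10.1% of 523. Position 56939169 of chromosome 16 (opposite to HERPUD1), position 47072581 of chromosome X and position 12328515 of chromosome 3 (within PPARG) followed at mean levels of 10.5%, 10.6% and 10.6%.

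**Figure D3:**
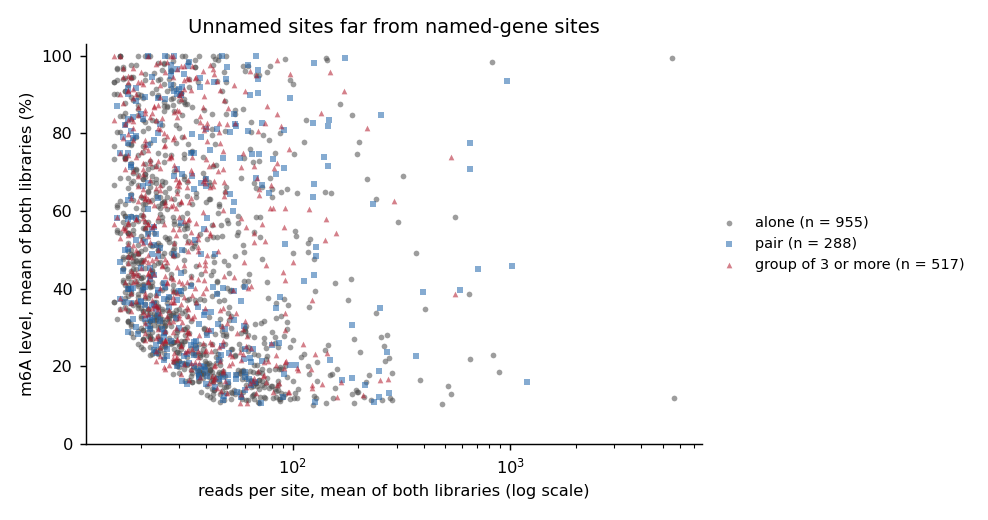
Level (vertical axis, mean of both replicates, %) of each of the 1760 sites against its depth (horizontal axis, mean reads of both libraries, log scale), with colour and shape for sites alone, in pairs and in groups of 3 or more. The curved lower edge at low depth is the limit of 5 A reads, and the 2 deepest sites stand at 11.8% and 99.5%.

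Sites were chained into groups wherever neighbours on the same chromosome and strand lay at most 10000 nt apart. This gave 1194 groups. Most were single sites: 955 sites (54.3%) stood alone, 288 formed 144 pairs, and 517 (29.4%) fell into 95 groups of at least 3. There were 41 groups of at least 5 and 13 of at least 10, and the largest had 17. Groups of 3 or more were compact, with a median span of 608 nt, and 57.6% of the 566 distances between neighbours in a group were at most 100 nt. Only 1 distance was shorter than 4 nt, and 36 were 4 to 6 nt.

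Over all depths, sites in groups of 3 or more had a higher median level than sites that stood alone. Medians were 52.0% (47.5 to 55.8) in groups of 3 or more, 44.3% in pairs and 40.2% (37.4 to 42.7) alone. From 30 to 49 reads the difference was 49.8% (42.0 to 57.5) against 31.0% (26.5 to 38.2), and under 30 reads 56.7% (52.5 to 62.3) against 49.6% (47.2 to 54.1). The intervals were apart from 30 to 49 reads only and overlapped in the other classes of depth. Levels under 20% were more frequent among sites alone, with 18.5% against 8.90% in groups of 3 or more. Within a group levels varied widely: the median range from the lowest to the highest site was 54.6 points, and neighbours differed by a median of 24.6 points. The levels of neighbours had a Spearman rho of 0.0835 and their depths of 0.518, over 566 pairs that share a library and usually a transcript.

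The largest groups, with the genes RefSeq places there, showed what such runs look like. The largest had 17 sites within 2126 nt of chromosome 11 (positions 2012587 to 2014712, plus strand), at the far end of the RefSeq span of MRPL23, a mitochondrial ribosomal protein gene named elsewhere in the lists. Its levels ran from 25.7% to 96.1%. The highest, position 2013352, had 97.4% of 39 and 94.7% of 38 reads, and position 2013511 had 97.1% and 92.1%. The mean of the 17 was 56.7% in replicate 1 and 59.0% in replicate 2.

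The next largest groups lay in a pair of transcribed pseudogenes of one family, DUXAP9 on chromosome 14 (14 sites, positions 19095554 to 19100791) and DUXAP8 on chromosome 22 (13 sites, positions 15819529 to 15823355), both with sites on the plus strand. On chromosome 22 all 13 sites lay in the span of DUXAP8, and 8 of them, 3 of the matched ones below included, also in that of BMS1P22, another transcribed pseudogene. The tables used do not give the strand of these genes. Their layouts matched in part. After a single shift of coordinates 7 of the 14 sites fell within 3 nt of a site of the other group, 4 of them exactly. The levels of matched sites followed each other: 90.8% and 93.5% for positions 19098792 and 15821356, 16.4% and 21.5% for the sites 16 nt further on (19098808 and 15821372), and 18.6% and 17.4% for positions 19100791 and 15823355. The matched levels differed by 1.16 to 16.6 points. This match was noticed after the sites had been seen and was not tested, and reads of such copies may not be separable.

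On chromosome 12, 13 sites (positions 9294118 to 9297590, plus strand) lay in the noncoding gene LOC642846, at 21.4% to 93.4%. Their mean was 42.4% in replicate 1 and 42.6% in replicate 2. On chromosome 19, 13 sites (positions 58406447 to 58407675, minus strand) lay in ZNF584-DT, the divergent transcript of the zinc finger gene ZNF584, at 13.8% to 96.6%. In that run position 58406831 had 95.9% of 49 and 97.3% of 37 reads, and position 58406769, 62 nt further on, 13.5% of 37 and 14.0% of 57.

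Several groups ran opposite to a protein-coding gene. On chromosome 1, 13 plus-strand sites (positions 1351649 to 1357433) lay against or beside MXRA8, at 18.1% to 85.2%. On chromosome 6, 11 minus-strand sites (positions 1604340 to 1609586) lay against the noncoding gene FOXCUT and before FOXC1, a forkhead transcription factor gene, at 26.1% to 100%; position 1608440 was read as A in all of 27 and 29 reads. On chromosome 16, 11 minus-strand sites (positions 28285886 to 28291937) lay against the kinase gene SBK1 and in the span of LOC124903670, a noncoding gene of unlisted strand, at 29.8% to 97.2%. Their mean levels were 50.6%, 61.5% and 57.0%.

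A pair of groups on chromosome 16 lay inside a gene on its own strand: 11 sites in RAB11FIP3, an effector of RAB11 in membrane recycling (positions 499360 to 502827, 26.7% to 92.7%), and 11 in TCF25 (positions 89893355 to 89904030, 37.5% to 94.4%). All 11 sites in RAB11FIP3 also lay in the spans of the pseudogene LOC102723945 and the noncoding gene LOC105371132, both of unlisted strand. RAB11FIP3 was named elsewhere in the lists and TCF25 was not. One group lay in no RefSeq gene on either strand: 11 plus-strand sites within 1355 nt of chromosome 4 (positions 118513968 to 118515322), with 888 and 982 reads in all, the most of any group named here. Position 118515035 had 92.2% of 51 and 92.9% of 56 reads, and position 118515028, 7 nt before it, 16.4% of 61 and 15.2% of 66.

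**Figure D4:**
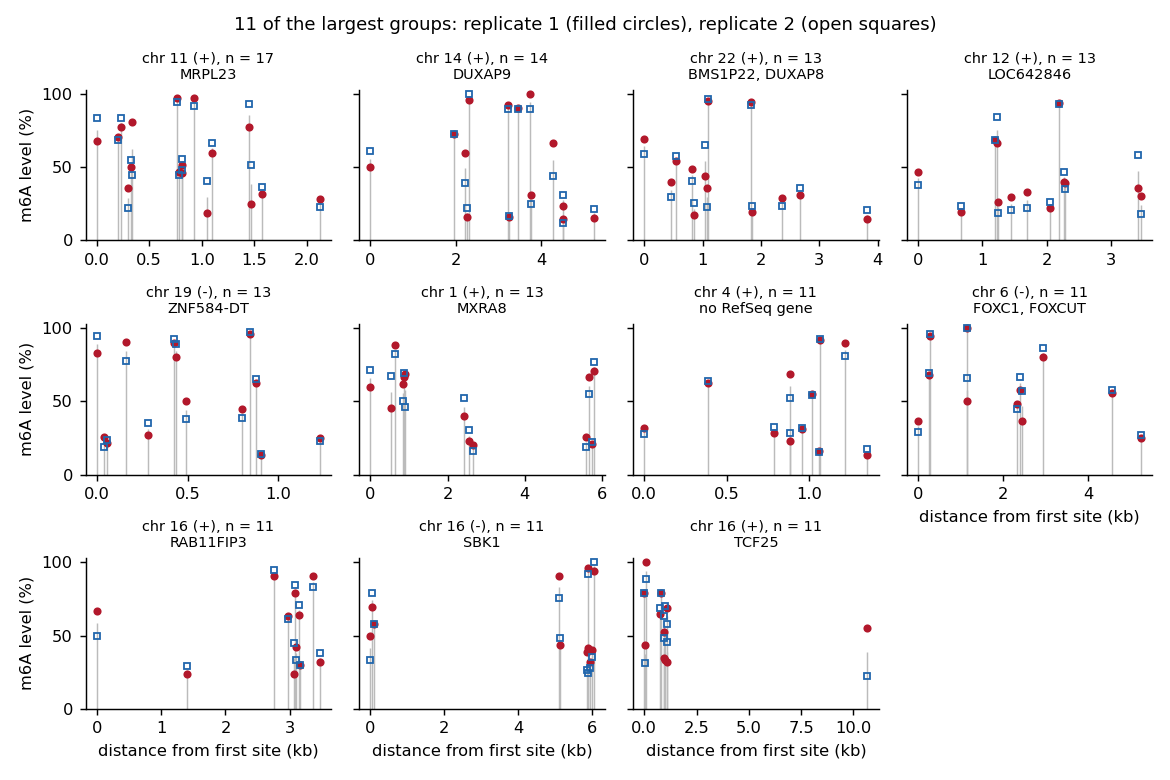
The 11 groups described, 1 panel each: level of each site (vertical axis, %) in replicate 1 (filled circles) and replicate 2 (open squares) against the distance from the first site in the direction of the strand (horizontal axis, kb); grey lines reach the mean of both. In every panel the lowest and highest site are at least 56.9 points apart, and weakly methylated sites lie close to strongly methylated ones.

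The plus strand held most of the 1760 sites. How reads were assigned to strands and sites called on each is not stated, and its part in the shares below was not tested. There were 1292 on the plus strand and 468 on the minus strand, 73.4% plus (95% Wilson interval 71.3 to 75.4). Sites in named genes were 57.6% plus (57.2 to 58.0) and near unnamed sites 62.3% (60.4 to 64.2). Among 27305 genes with a RefSeq promoter window 50.7% are on the plus strand, and of the 9521 named genes with shared sites 55.2%. Counted by group, so that a run of sites counts once, 885 of 1194 groups were plus, 74.1% (71.6 to 76.5), and 65 of the 95 groups of 3 or more, 68.4% (58.5 to 76.9).

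The excess was found on nearly all chromosomes. More plus than minus sites were counted on 22 of 23 chromosomes, the exception being chromosome 19 with 41 and 43. Shares ran from 48.8% there to 90.5% on chromosome 20 (19 of 21 sites) and were 85.1% on chromosome 7 (74 of 87). On 22 of the 23 the share was above that of the named-gene sites of the same chromosome. It lay between 72.6% under 30 reads and 77.2% from 100 to under 200 reads. By place it varied more. It was 76.4% inside an annotated gene of the same strand (395 of 517), 70.3% inside a gene of the opposite strand (256 of 364), 68.4% inside a gene of unlisted strand (104 of 152) and 74.7% in no gene on either strand (509 of 681). Past an end it was 63.2% (48 of 76, 51.9 to 73.1), and upstream on the same strand 64.4% (38 of 59, 51.7 to 75.4). Without the need to be listed in both files the share was 73.1% of 2384 sites in replicate 1 and 73.5% of 2990 in replicate 2. Sites before a gene start on the opposite strand were 47.5% plus (19 of 40). Levels hardly differed by strand, with medians of 44.6% on the plus strand (41.7 to 47.6) and 43.4% on the minus strand (40.7 to 47.3), nor did depth, at 32.0 and 31.0 reads.

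**Figure D5:**
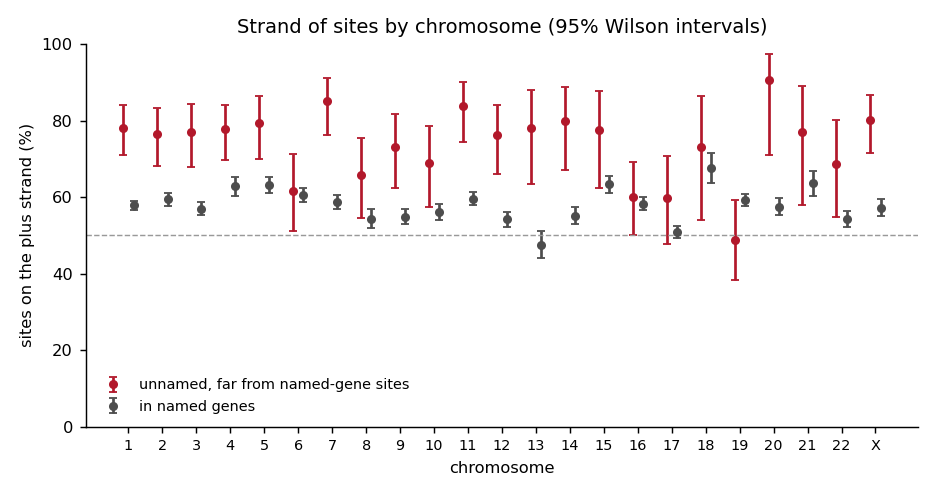
Share of sites on the plus strand (vertical axis, %) by chromosome (horizontal axis) for the far unnamed sites and the sites in named genes, with 95% Wilson intervals; the dashed line marks equal shares. The far unnamed sites lie above the named-gene sites on 22 of 23 chromosomes, with chromosome 19 below at 48.8%.

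RefSeq annotates a gene at many of the sites that the deposited lists leave unnamed. Inside a gene on the same strand lay 517 sites (29.4%, 95% Wilson interval 27.3 to 31.5) in 301 genes: 362 in protein-coding genes, 150 in long noncoding RNA genes and 5 in transcribed pseudogenes. Of the 301 genes 132 were named elsewhere in a deposited list, with 244 of the sites. A further 59 sites (3.35%) lay within 1000 nt upstream of a same-strand gene, 76 (4.32%) within 10000 nt past the end of one, 40 (2.27%) within 1000 nt before the start of an opposite-strand gene, 364 (20.7%) inside an opposite-strand gene and 152 (8.64%) in a gene whose strand the tables used do not give. The remaining 552 (31.4%) had none of these. Exons and introns were not analysed here.

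Sites upstream of a start on the opposite strand had the highest median, 55.7% (42.1 to 68.5, n = 40 sites), and those upstream on the same strand the lowest, 32.3% (24.9 to 41.0, n = 59). Their intervals do not overlap, but their median depths were 25.8 and 44.0 reads. Shallow sites can be listed only with high levels, and the part of depth in this difference was not tested. Past an end the median depth was 23.8 reads. Sites inside a same-strand gene had 41.9% (39.1 to 47.1), inside an opposite-strand gene 47.7% (43.4 to 51.9), past an end 53.6% (42.1 to 63.0) and in none of these 45.3% (40.2 to 49.05), with intervals that overlap. Noncoding genes with runs of such sites were DHCR7-DT (5 sites, mean 30.6%), JTB-DT (6, 64.1%), WASL-DT (5, 67.8%) and SNHG5 (4, 47.4%), a host gene of small nucleolar RNAs. Among protein-coding genes TMEM181 had 6 sites at a mean of 49.9%, and CEP89, a centrosomal protein gene, 6 at 66.8%. Past the end of ANKRD36 lay 6 sites at 3250 to 8564 nt, with a mean level of 51.9%. No site fell in a miRNA hairpin; the nearest on the same strand was at position 45745729 of chromosome X (minus strand), 428 nt beyond MIR221, with 12% of 50 and 10.8% of 74 reads.

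The distance to the nearest named-gene site on the same strand ran from 10044 nt to 7476702 nt, with a median of 121047 nt; 934 sites (53.1%) were over 100000 nt away and 198 (11.2%) over 1000000. Just inside the limit of the rule, 34 sites at up to 11000 nt had a median level of 39.1% and 28.5 reads, and just outside it, 23 unnamed sites at 9000 to 10000 nt had 38.3% and 27 reads. On the opposite strand, 272 of the 1760 sites had a named-gene site within 10000 nt. Those had a median level of 49.9%, a median depth of 26.0 reads and a plus-strand share of 55.1%.

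For unnamed sites the lists give 1 conversion fraction and 1 gene coverage per chromosome in place of a value per gene. At the chromosomes with such sites conversion ran from 97.6% (chromosome 4) to 98.2% (chromosome 15) in replicate 1 and from 97.5% to 98.2% in replicate 2 on the same chromosomes.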

How the data were processed

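The authors deposited 1 list of sites per replicate. Per the file headers each line holds the count of A or G reads, the count of A reads and their ratio, a fraction used here as the level; the deposited lists also give a conversion fraction, a gene coverage (signal) and a p-value. Per the submitters' processing notes the build was GRCh38 and the tools included STAR, Bowtie, SAMtools and Trim Galore 0.6.6. Their order is not stated, nor is the annotation or the program that called sites. Listed sites had at least 15 reads, 5 A reads and a level of 10%. The 1760 sites held 97755 reads in replicate 1 and 113299 in replicate 2, which is not library depth.

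Sites were joined by chromosome, position and strand, and levels averaged over both files. Fisher's exact test (two-sided, Benjamini-Hochberg over all shared sites, 0.05) was run in SciPy 1.17.1 and tested on simulated data. Shares carry 95% Wilson intervals and medians 95% order-statistic intervals, for counting error only. Gene places came from RefSeq's GRCh38.p14 table of 59792 genes, with strand from its promoter table (27305 genes), its miRNA table (1774) or the lists (2761); promoter and miRNA sequences are RefSeq's. Named were the 12 largest groups (11 are given, and 1 is not reported here), the 10 deepest sites, and the 5 highest, 5 lowest and 5 most different with at least 50 reads in both files; promoter sites and further genes were chosen after their values were seen. Members, lists and rules were chosen with earlier results of these data known. The m6A consensus over all sites and repeats were not analysed here, since no genome was used.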

Additional observations from a re-analysis of the deposited data

How the results depend on the processing

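The plus-strand share stayed between 71.3% and 75.4% in 10 of 11 alternatives and was 76.7% with named-gene sites on either strand counted; from 1 replicate alone it was 73.2% and 73.0%. The count of sites called between replicates stayed at 0 in all 3 alternatives. With at least 30 reads in both files there were 826 sites in 610 groups, with medians of 30.4% and 56.8 reads, and 22.5% in groups of 3 or more. With at least 50 reads there were 419 sites in 333 groups, with 27.7% and 84.0 reads, 12.4% in groups of 3 or more and 23.4% in a same-strand RefSeq gene. At a level of at least 20% the medians were 51.7% and 28.5 reads. A distance of 5000 nt gave 35.4% in groups of 3 or more and 36.6% in a same-strand gene, 20000 nt gave 26.0% and 25.8%, and 50000 nt gave 17.8% and 22.97% among 1171 sites. With either strand counted the median depth was 33.2 reads and 24.0% were in groups of 3 or more; chaining at 2000 nt gave 27.3%. In alternatives added after seeing the data, the deepest site of each group alone gave medians of 40.5% and 34.0 reads and 25.8% in a same-strand gene, and leaving out pseudogene spans gave 26.8% in groups of 3 or more. Chaining at another distance regroups the same sites, and the limits on depth, level, distance, strand, group and pseudogene spans keep fewer or other sites by construction. From replicate 2 alone or replicate 1 alone there were 3097 or 2497 sites, 2037 or 1644 groups, median levels of 38.9% or 40%, a median depth of 27.0 reads in both, 32.0% or 32.7% in groups of 3 or more, and 32.5% or 31.6% in a same-strand gene. The planned shares of consensus motifs and of repeat-masked bases over all sites were not run, since no genome was used. No paired analysis was possible because there is only 1 group. Depth limits what low levels can be listed.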
